A study of Arabidopsis thaliana with 12 samples.

Results

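Transcripts that separate 2 single mutants of Arabidopsis thaliana, brm-1 and ref6-1, were sought by setting the 2 mutants against each other directly. All loci of the deposited count table were taken for the 3 brm-1 and the 3 ref6-1 libraries, 6 of the 12 libraries of the study, and no wild-type (WT) library entered the test. BRM (BRAHMA) is the ATPase of a SWI/SNF complex, a machine that slides and evicts nucleosomes. REF6 (RELATIVE OF EARLY FLOWERING 6) is a Jumonji demethylase that strips the repressive Polycomb mark from lysine 27 of histone H3, and its zinc fingers bind DNA at a short CTCTG-type motif. Both proteins are known to keep developmental genes active where Polycomb would silence them.

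RNA came from seedlings aged 14 days, grown on Murashige and Skoog medium under long days, and was read as paired ends from TruSeq RNA libraries. The groups were the mutant brm-1, the mutant ref6-1, the combined mutant brm-1 ref6-1 and WT, each with 3 libraries and no treatment named in the labels. The labels name 1 allele of each gene, so a difference belongs to these 2 alleles and their lines. They also describe RNA of the biological replicates as pooled, so p-values measure only the spread between these libraries, which may be technical. In seedlings, which mix many tissues, fewer cells of a type and less RNA per cell cannot be told apart.

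The 6 libraries held 10308025 to 11768789 counts each over 29420 loci, of which 21736 had counts high enough to be tested. Levels are given in CPM, counts scaled to a common normalized library size, and differences as log2 of brm-1 over ref6-1 with standard error (SE). On the first principal component, with 62% of the variance, brm-1 libraries lay between -28.0 and -23.3 and ref6-1 libraries between 21.0 and 30.6. The second component (15.5%) spread the ref6-1 libraries from -21.5 to 20.3 and the brm-1 libraries from -7.21 to 8.06. Root markers summed to 586 to 667 CPM in brm-1 and 541 to 624 CPM in ref6-1, with none of the 16 at 0, and stomatal lineage markers to 179 to 193 CPM in brm-1 and 166 to 190 CPM in ref6-1, with none of the 7 at 0. The 5 trichome markers summed to 81.5 to 95.1 CPM in brm-1, above the 62.4 to 72.2 CPM of ref6-1, with none of the 5 at 0. They include TCL1, an inhibitor of trichome formation, so the sum does not measure the share of trichomes. The part of trichomes in other differences was not tested.

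Transcripts of BRM (AT2G46020, chromosome 2, 18922533 to 18932055 in the TAIR10.1 annotation) had 3.66, 4.56 and 7.25 CPM in brm-1 libraries, against 269, 257 and 275 CPM in ref6-1 libraries. Its log2 difference was -5.71 ± 0.12 (SE, n = 3 per group, edgeR adjusted p = 3.4e-06), and the libraries did not come near each other. REF6 (AT3G48430, chromosome 3, 17935256 to 17940792) had 89.8, 90.9 and 91.3 CPM in brm-1 and 78.0, 82.9 and 81.3 CPM in ref6-1. This difference of 0.17 ± 0.03 passed with edgeR (adjusted p = 0.0142) and did not with DESeq2 (adjusted p = 0.151) or without brm-1 replicate 2 (edgeR adjusted p = 0.0553; the alternatives spanned 0.0141 to 0.151). Since an allele without function may keep its transcript, these counts are no check of which libraries carry ref6-1. BRM overlaps UBC6 on the opposite strand.

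Of the 21736 genes tested, 3033 (14.0%) passed the threshold, an edgeR adjusted p under 0.05 by the quasi-likelihood test. In brm-1, 1624 (7.47%) were higher and 1409 (6.48%) lower than in ref6-1, and the median log2 difference of all genes tested was 0. Most of these differences were small: 1779 of the 3033 were under 1.5-fold, their median absolute log2 difference was 0.48, and 399 (1.84%) higher and 264 (1.21%) lower genes differed at least 2-fold (3.05% in all). The brm-1 and ref6-1 libraries did not overlap in any of the 3033 genes, while 33.8% of all genes tested had no overlap. Where libraries of a called gene are said below to lie apart, this holds for every called gene and adds no support. Without ref6-1 replicate 2 the count was 1760, and 1449 genes passed both with all libraries and without each one in turn.

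**Figure D1:**
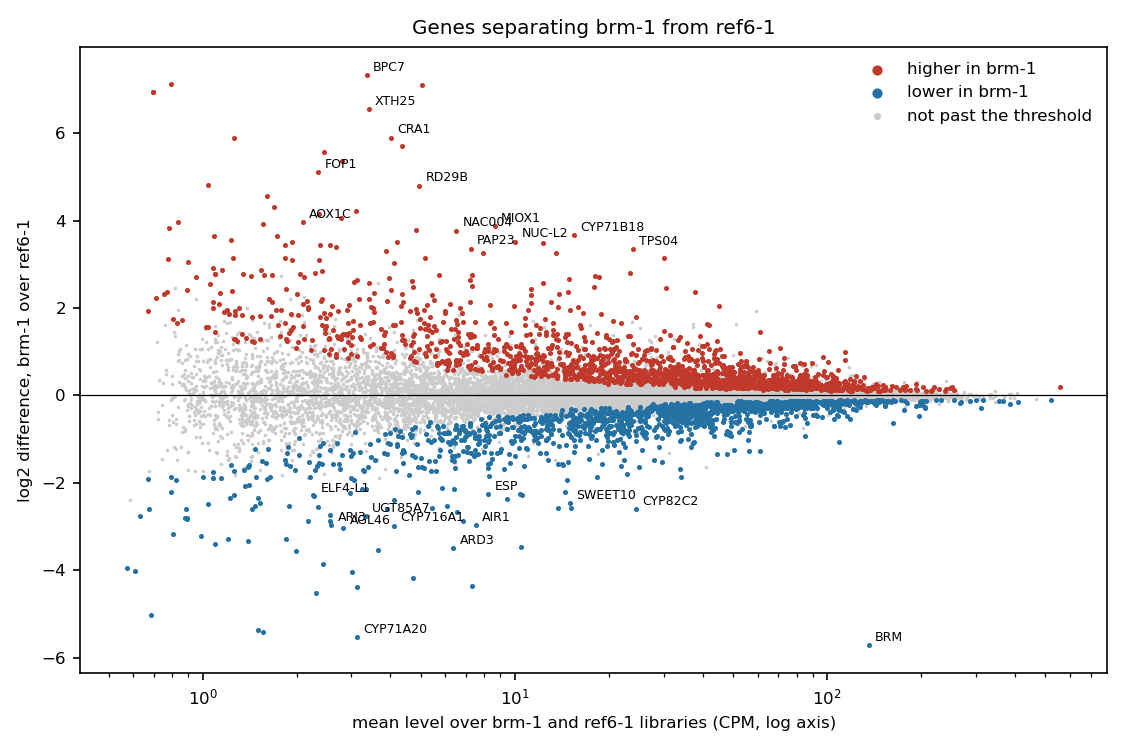
Log2 difference (brm-1 over ref6-1, vertical axis) against the mean level in CPM (log axis) for each gene tested, with genes past the threshold in red (1624, higher in brm-1) and blue (1409, lower in brm-1). The named genes are the 12 largest differences each way among genes with a symbol and a mean of at least 2 CPM, and BRM stands alone at a high level.

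The largest difference in favour of brm-1 was in BPC7 (AT2G35550, chromosome 2, 14929243 to 14930898), a BASIC PENTACYSTEINE gene, whose family binds GA repeats and is known to recruit Polycomb complexes. BPC7 had 6.55, 6.47 and 7.05 CPM in brm-1 libraries, against 0.0892, 0 and 0 CPM in ref6-1 libraries. It was near silent in all ref6-1 libraries and even across brm-1 libraries. The counts were 220 over brm-1 against 1 over ref6-1, which is 220 times as many (exact 95% limits 39.0 and 8710 from counting error alone, too narrow if both mates of a pair were counted). The fitted log2 difference was 7.32 ± 0.49 (edgeR adjusted p = 8.86e-05) and became 9.19 without ref6-1 replicate 1 and 6.67 with limma-voom. BPC7 overlaps AT2G35555 on the opposite strand, and the strand setting of the counts is not given in the sources used here.

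XTH25 (AT5G57550, chromosome 5, 23304782 to 23306440), a xyloglucan endotransglucosylase that cuts and rejoins cell wall xyloglucan, came second. It had 8.42, 2.64 and 9.20 CPM in brm-1 libraries, against 0, 0 and 0.183 CPM in ref6-1 libraries. The brm-1 libraries differed among themselves, yet the lowest of them stood far above every ref6-1 library. The 222 counts in brm-1 against 2 in ref6-1 were 111 times as many (exact 95% limits 30.3 and 921 from counting error alone). The fitted log2 difference was 6.55 ± 0.89 (edgeR adjusted p = 0.00332), or 9.22 without ref6-1 replicate 3.

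The bases just upstream of the annotated start are shown for these 2 genes with the widest separation, and for CRK15 and XTH17, 2 list members described below that lie on opposite sides of the comparison and hold the REF6 motif. Each is the 150 bases before the start in the TAIR10.1 genome of RefSeq, read on the gene's strand, and capitals mark a motif match.
BPC7 (chr2:14929093-14929242, plus strand): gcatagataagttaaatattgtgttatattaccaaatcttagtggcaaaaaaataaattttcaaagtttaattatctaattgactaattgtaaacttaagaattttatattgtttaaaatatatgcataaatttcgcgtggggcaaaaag
XTH25 (chr5:23306441-23306590, minus strand): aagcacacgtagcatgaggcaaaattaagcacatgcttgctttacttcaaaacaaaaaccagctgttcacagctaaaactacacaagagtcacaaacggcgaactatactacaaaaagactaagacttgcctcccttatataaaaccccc
CRK15 (chr4:12160280-12160429, minus strand): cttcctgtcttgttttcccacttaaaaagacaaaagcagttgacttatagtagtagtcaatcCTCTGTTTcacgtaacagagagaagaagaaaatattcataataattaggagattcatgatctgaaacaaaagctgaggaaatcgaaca
XTH17 (chr1:24256904-24257053, plus strand): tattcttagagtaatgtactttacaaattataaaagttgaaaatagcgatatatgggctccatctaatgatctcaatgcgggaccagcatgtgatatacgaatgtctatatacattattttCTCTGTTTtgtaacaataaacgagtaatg

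The motif letters searched were CTCTGTTT, CTCTGTTC, CTCTGCTT and CTCTGCTC on both strands, from 250 bases before to 50 after the start. They were found in 8.80% of 1613 promoters of genes higher in brm-1, in 6.76% of 1405 promoters of genes lower in brm-1, and in 7.52% of the 21639 promoters of all genes tested. Among genes at least 2-fold apart the shares were 11.8% of 397 for those higher and 5.68% of 264 for those lower in brm-1. CRK15 and XTH17 were shown because they hold a match, and BPC7 and XTH25 held none in the 250 bases before the start. EXPA11 and TCP3, list members with negative log2 differences, held the motif there too. The evening element AAAATATCT, a clock motif set beside it, was in 3.16% of the promoters of genes higher and 2.99% of those lower in brm-1, against 2.97% of all. These shares describe letters in a window and were not tested.

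Other genes with large differences in favour of brm-1 came from several classes. FOP1 (FOLDED PETALS 1), a wax ester synthase family gene of petals, had 5.02, 5.38 and 3.33 CPM in brm-1 and 0.178, 0 and 0.183 CPM in ref6-1 (5.11 ± 0.52, edgeR adjusted p = 0.000617). MIOX1, a myo-inositol oxygenase, had 19.1, 14.0 and 15.4 CPM in brm-1, against 1.34, 0.929 and 1.01 CPM in ref6-1 (3.87 ± 0.21, edgeR adjusted p = 4.53e-05). The lowest brm-1 library stood far above the highest ref6-1 library in both, and lack of overlap was a condition of the choice. NUC-L2, a nucleolin gene of ribosomal RNA gene chromatin, had 19.7, 18.3 and 17.5 CPM in brm-1 and 1.78, 1.21 and 1.83 CPM in ref6-1 (3.52 ± 0.17, edgeR adjusted p = 1.95e-05). CYP71B18, a cytochrome P450, had 29.8, 28.9 and 27.4 CPM in brm-1 and 2.94, 2.23 and 1.56 CPM in ref6-1 (3.67 ± 0.17, edgeR adjusted p = 1.81e-05). In each of these the replicates lay close together within a mutant.

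Also among the 12 largest were AOX1C (3.96 ± 0.42), an alternative oxidase of mitochondria, NAC004 (3.77 ± 0.25), a NAC-family transcription factor gene, and PAP23 (3.36 ± 0.55), a purple acid phosphatase, with edgeR adjusted p of 0.000763, 7.79e-05 and 0.00948. PAP23 stood at 4.35 without ref6-1 replicate 3. TPS04, the synthase of geranyllinalool for a herbivore-induced volatile, had 63.3, 20.7 and 46.5 CPM in brm-1 and 2.77, 2.14 and 7.87 CPM in ref6-1. Both mutants varied widely, and its difference of 3.35 ± 0.65 (edgeR adjusted p = 0.0297) moved to 4.15 without ref6-1 replicate 3. The TPS04 call ended with limma-voom (adjusted p = 0.171), with no filter (0.0518), and without brm-1 replicate 1 (0.056), brm-1 replicate 3 (0.0771), ref6-1 replicate 1 (0.139) or ref6-1 replicate 2 (0.0932) (the alternatives spanned 0.000101 to 0.171). Among the lowest p-values were FH8 (1.60 ± 0.07, edgeR adjusted p = 1.81e-05), a formin that nucleates actin, and CPK15 (2.56 ± 0.13, edgeR adjusted p = 3.33e-05), a calcium-dependent protein kinase.

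**Figure D2:**
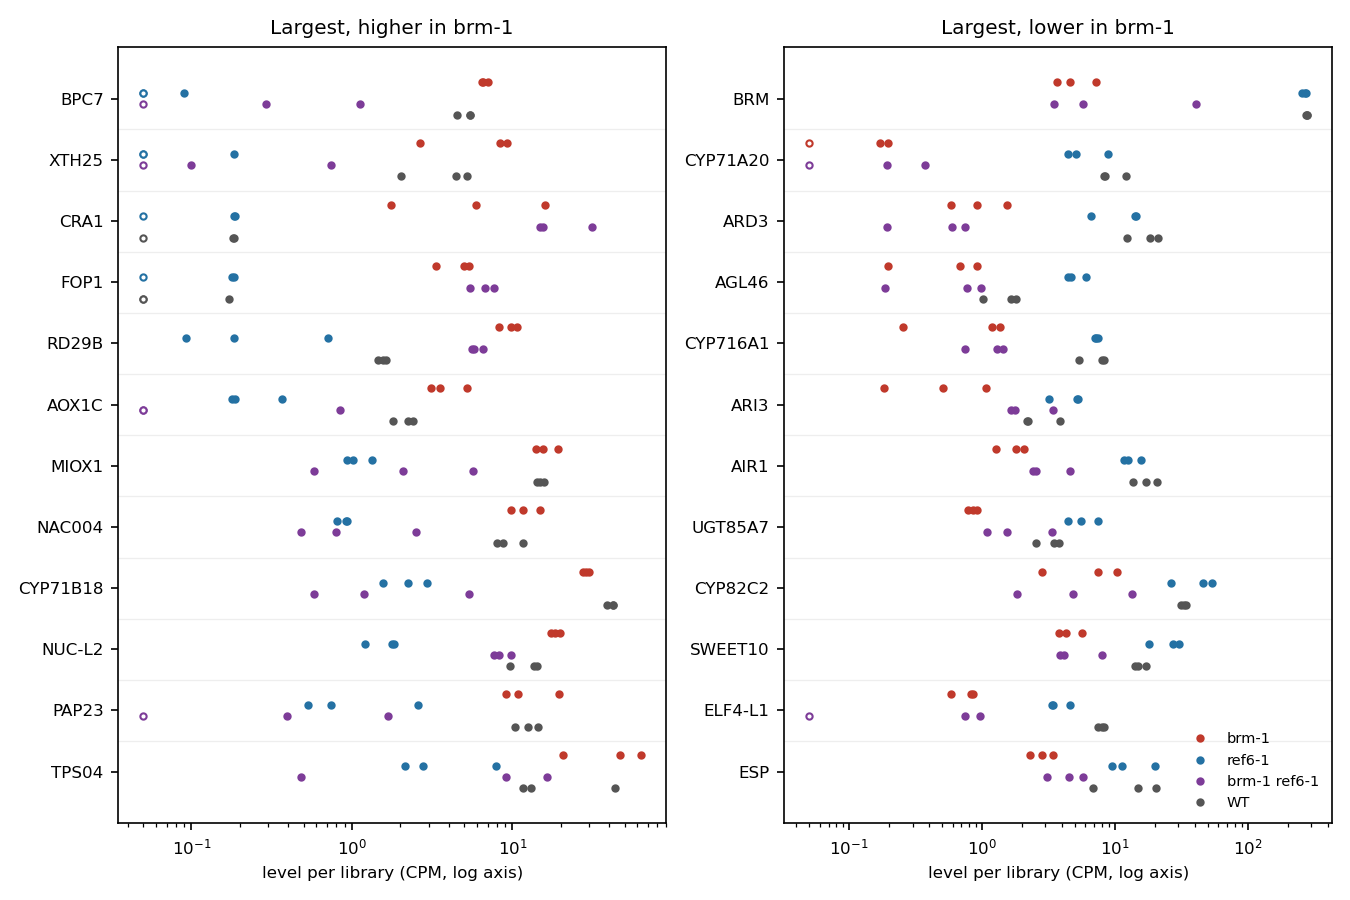
Level in each library (CPM, log axis, open points at the left edge are 0 counts) of the 12 largest differences higher and the 12 largest lower in brm-1, with brm-1 above ref6-1, then the combined mutant and WT. Only genes whose brm-1 and ref6-1 points do not overlap could be chosen, for example BPC7 with 6.47 to 7.05 CPM against 0 to 0.0892 CPM.

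On the other side, after BRM itself, the P450 gene CYP71A20 (AT4G13310, chromosome 4, 7750305 to 7753210) was farthest below ref6-1 among genes chosen by the same rule. It had 0.17, 0 and 0.196 CPM in brm-1 libraries, against 5.09, 4.46 and 8.88 CPM in ref6-1 libraries (-5.53 ± 0.58, edgeR adjusted p = 0.000703). The transcript was near the detection limit in all brm-1 libraries, and CYP71A20 shares 92.1% of 481 bases with CYP71A19. ARD3, an acireductone dioxygenase of the methionine salvage cycle, had 1.53, 0.911 and 0.588 CPM in brm-1 and 6.60, 14.4 and 14.2 CPM in ref6-1 (-3.50 ± 0.42, edgeR adjusted p = 0.00182). AIR1, a lipid transfer-type protein first found as auxin-induced in root cultures, had 1.79, 1.28 and 2.06 CPM in brm-1 and 12.5, 11.8 and 15.7 CPM in ref6-1 (-2.96 ± 0.22, edgeR adjusted p = 0.000125). The libraries of the 2 mutants were apart in both genes, while AIR1 overlaps AT4G12555 on the opposite strand and shares 92.9% of 453 bases with a copy.

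SWEET10, a sugar transporter, had 3.83, 5.65 and 4.31 CPM in brm-1 and 18.2, 30.6 and 27.5 CPM in ref6-1 (-2.47 ± 0.23, edgeR adjusted p = 0.000639). DYW1, which acts in editing of a chloroplast transcript, had 5.10, 5.47 and 4.90 CPM in brm-1 and 24.5, 23.6 and 23.5 CPM in ref6-1 (-2.21 ± 0.10, edgeR adjusted p = 1.81e-05). DYW1 varied little within each mutant and widely between them. AGL46 (-3.04 ± 0.39), a MADS-box gene, CYP716A1 (-2.98 ± 0.39), a P450 of triterpene oxidation, ARI3 (-2.96 ± 0.47), a ubiquitin ligase of the Ariadne type, and ELF4-L1 (-2.31 ± 0.30), a relative of the clock gene ELF4, also passed, with edgeR adjusted p of 0.00191, 0.0021, 0.00472 and 0.00191. ARI3 stood at -3.66 without brm-1 replicate 3 and shares 90.4% of 1262 bases with AT3G27720, and ELF4-L1 overlaps CYP5 on the opposite strand.

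ESP, the epithiospecifier protein that steers glucosinolate breakdown to nitriles, was lower in brm-1 by a log2 difference of -2.25 ± 0.32 (edgeR adjusted p = 0.0036), and a near copy shares 96.4% of 759 of its bases. CYP82C2, a P450 of an indole defence pathway, had 10.4, 2.82 and 7.44 CPM in brm-1 and 26.3, 46.1 and 54.0 CPM in ref6-1 (-2.60 ± 0.47, edgeR adjusted p = 0.0216). Settings that ended its call included limma-voom (adjusted p = 0.0759) and leaving out brm-1 replicate 3 (0.0768) or ref6-1 replicate 2 (0.0635) (the alternatives spanned 0.000229 to 0.133). Of small but even differences, FACT, which makes caffeate esters of fatty alcohols in suberin wax, differed by -0.88 ± 0.05 and HDG2, an epidermal homeodomain gene, by -0.71 ± 0.04 (edgeR adjusted p = 5.98e-05 and 6.35e-05).

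Over 30 lists of pathway genes and markers, 481 members were tested. Of these, 70 were higher and 48 lower in brm-1, which is 24.5% beside 14.0% of all genes tested, and the count was 73 in all without ref6-1 replicate 2. The lists were chosen with earlier results of these data known, so this share is a description of the lists. By list, the share called ran from 0% for cell division to 75% for the 4 tested seed maturation genes. Shares of the clock (16.7%), senescence (9.09%), photosynthesis (8.33%) and salicylate (5.26%) lists were near or below the 14.0%. Counts of calls in these lists are therefore no result about their pathways. Higher shares of other lists are a description too, since those lists were chosen in the same way.

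**Figure D3:**
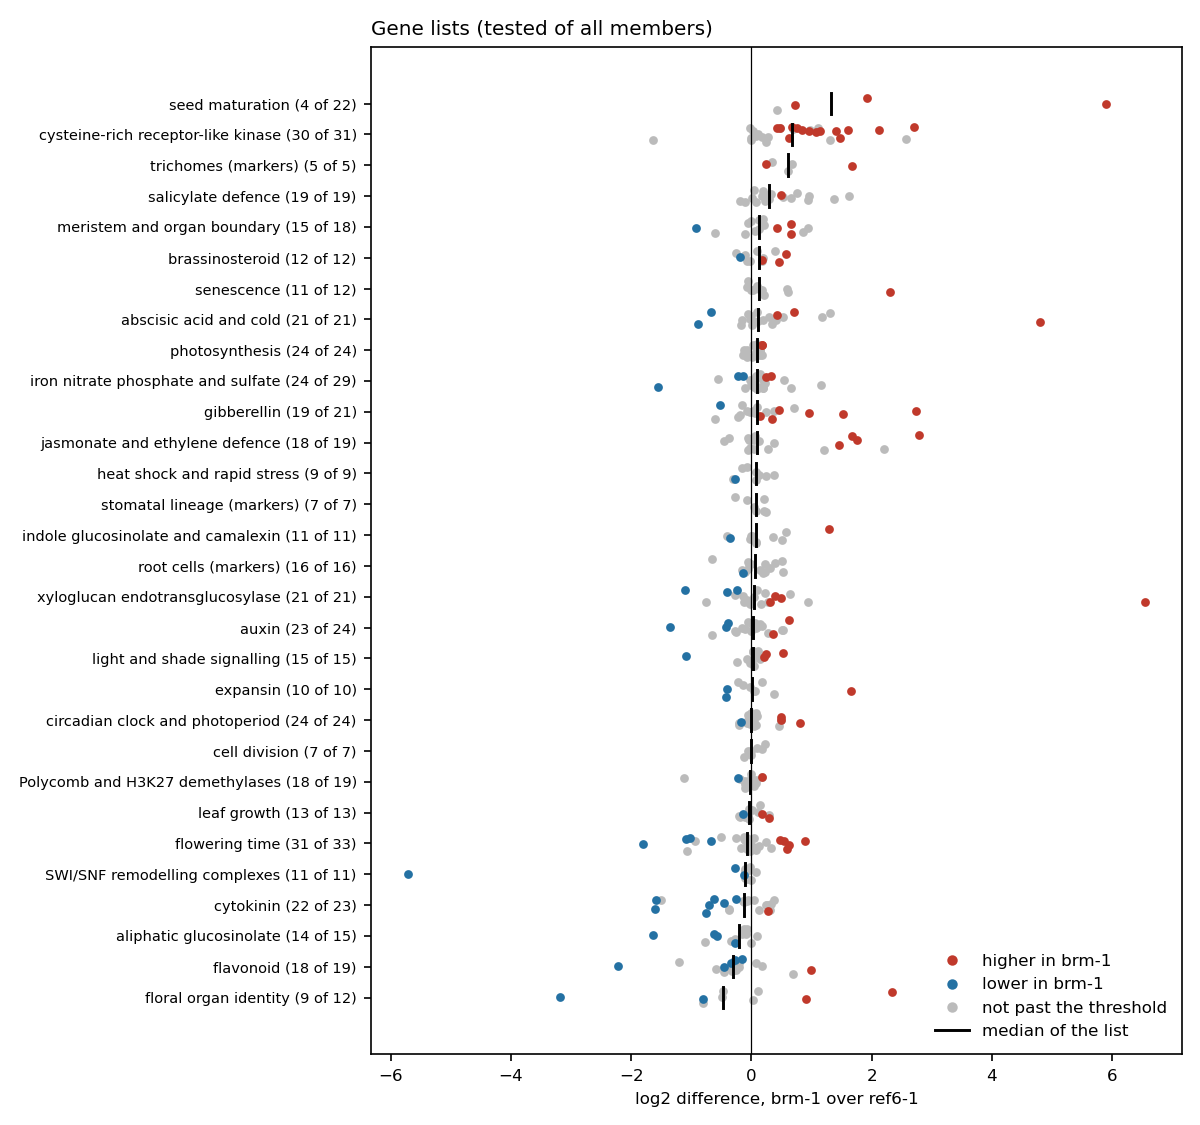
Log2 difference (brm-1 over ref6-1) of every tested member of the 30 lists, 1 point a gene and 1 row a list, with red for higher in brm-1, blue for lower, grey for not past the threshold and a bar for the list's median. The receptor-like kinases lie mostly to the right with a median of 0.68, and several cytokinin and flavonoid genes lie to the left.

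The cysteine-rich receptor-like kinases (CRK) that passed were all higher in brm-1. These membrane kinases carry paired extracellular DUF26 domains, and many are known to respond to pathogens and reactive oxygen. Of 30 tested members, 14 were higher in brm-1, none was lower and 16 did not pass. The share called was 46.7%, all higher, beside 7.47% of all genes tested that were higher. The median over the 30 was 0.68 beside 0 for all genes, and 4 had a negative log2 difference. CRK12 (AT4G23200, chromosome 4, 12145035 to 12148041) had 29.6, 28.1 and 39.5 CPM in brm-1, against 5.89, 4.55 and 4.3 CPM in ref6-1 (2.71 ± 0.18, edgeR adjusted p = 9.11e-05). CRK15 (AT4G23230, chromosome 4, 12157827 to 12160279) had 19.0, 13.9 and 22.0 CPM in brm-1, against 2.41, 4.27 and 5.95 CPM in ref6-1 (2.12 ± 0.30, edgeR adjusted p = 0.00405). All brm-1 libraries lay above all ref6-1 libraries in both genes. CRK21 had 57.1, 61.2 and 53.2 CPM in brm-1 and 25.7, 32.9 and 30.2 CPM in ref6-1 (0.95 ± 0.09, edgeR adjusted p = 0.000537).

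Most of these calls lay in 1 array. The array of 19 CRK genes on chromosome 4 had 18 tested members, of which 13 were higher in brm-1 and 17 had a positive log2 difference, with a median of 0.90 and a range of -0.01 to 2.71. Of the 12 CRK genes elsewhere, CRK40 alone passed (0.43, edgeR adjusted p = 0.0395), and their median was 0.34 with a range of -1.64 to 2.57. The CRK40 call ended with no filter on low counts (0.0574) and without brm-1 replicate 1 (0.0853), brm-1 replicate 2 (0.11), brm-1 replicate 3 (0.126) or ref6-1 replicate 2 (0.0811) (the alternatives spanned 0.000564 to 0.126). CRK10 and CRK18, inside the array, differed by -0.01 ± 0.15 and 0.02 ± 0.08 and did not pass. The number of CRK calls ran from 13 to 15 with other tools and settings and from 9 to 15 with a library left out, the 9 without brm-1 replicate 3 or ref6-1 replicate 2. CRK13, which shares 96.2% of 826 bases with CRK22, lost its call when all 12 libraries were fitted (edgeR adjusted p = 0.221, alternatives 0.00089 to 0.221). Calls of CRK5, CRK8, CRK14, CRK17, CRK19 and CRK20 also ended in 1 or more alternatives, that of CRK20 (edgeR adjusted p = 0.0472) in 8. CRK16 and CRK17 overlap on the same strand, so their counts are uncertain.

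**Figure D4:**
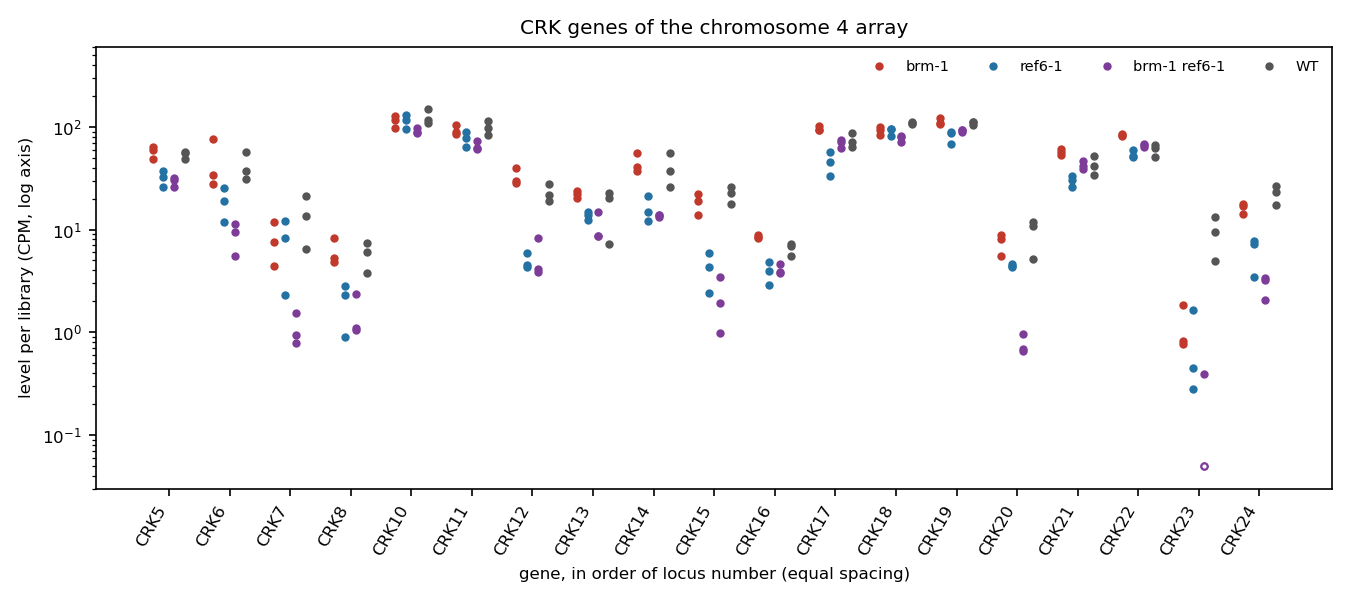
Level in each library (CPM, log axis, an open point is 0 counts) of the 19 CRK genes of the chromosome 4 array in locus order, with brm-1 left of ref6-1, then the combined mutant and WT. In CRK12 the brm-1 libraries sit between 28.1 and 39.5 CPM, above ref6-1 libraries at 4.3 to 5.89 CPM.

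Flowering time genes split. Of 31 tested, 5 were higher and 4 lower in brm-1 and 22 did not pass, with a median of -0.07. The share called was 29%, beside 14.0% of all genes tested. The higher members numbered 3 without brm-1 replicate 2 or ref6-1 replicate 2 and 2 without brm-1 replicate 3. AGL24 (AT4G24540, chromosome 4, 12670897 to 12674106), a MADS-box promoter of flowering, had 13, 8.93 and 8.62 CPM in brm-1 and 38.5, 32.3 and 36.4 CPM in ref6-1 (-1.80 ± 0.15, edgeR adjusted p = 0.000314). ATC, a floral repressor of the TFL1 family, had 11.1, 9.48 and 11.4 CPM in brm-1 and 21.5, 20.4 and 23.2 CPM in ref6-1 (-1.03 ± 0.10, edgeR adjusted p = 0.000617). Both genes were lower in every brm-1 library than in any ref6-1 library. MAF5, a relative of the repressor FLC, was lower by a log2 difference of -0.68 ± 0.13, while TOE3, an AP2-like repressor, and FD, the partner of florigen, were higher by 0.59 ± 0.07 and 0.54 ± 0.09 (edgeR adjusted p = 0.0105, 0.00124 and 0.00654).

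Other members of the flowering list gave less stable calls. CO, the photoperiod regulator, was higher by 0.62 ± 0.13 (edgeR adjusted p = 0.0155), a call lost without brm-1 replicate 1 (0.0567) or brm-1 replicate 3 (0.0548) (the alternatives spanned 0.00331 to 0.0567). FUL, a MADS-box gene of the inflorescence, was higher by 0.89 ± 0.20 (edgeR adjusted p = 0.0214), which ended without brm-1 replicate 2 (0.0783), brm-1 replicate 3 (0.0733) or ref6-1 replicate 2 (0.0859) (the alternatives spanned 0.00892 to 0.0859). The floral repressor FLC had 21.8, 22.9 and 22.6 CPM in brm-1 and 18.9, 19.5 and 18.2 CPM in ref6-1, and its difference of 0.25 ± 0.07 missed the threshold (edgeR adjusted p = 0.0548). FT, the florigen gene, had 8.67, 10.2 and 11.0 CPM in brm-1 and 9.55, 10.1 and 10.1 CPM in ref6-1, overlapping between the mutants (0.00 ± 0.13, edgeR adjusted p = 0.995). SOC1, which integrates flowering signals, also did not pass (-0.13 ± 0.06, edgeR adjusted p = 0.233).

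Of 9 tested floral organ genes, SEP3 and AG were higher and SEP4 and CAL lower in brm-1, and the median was -0.48. Together 44.4% passed, beside 14.0% of all genes tested. SEP3, a MADS-box partner in all floral whorls, had 42.8, 46.3 and 51.3 CPM in brm-1 and 24.5, 26.1 and 23.7 CPM in ref6-1 (0.91 ± 0.08, edgeR adjusted p = 0.000259). AG, which sets stamen and carpel identity and is a classic Polycomb target, had 5.27, 6.38 and 6.07 CPM in brm-1 and 0.981, 0.836 and 1.65 CPM in ref6-1 (2.34 ± 0.28, edgeR adjusted p = 0.00145). The 2 mutants were well apart in both genes. SEP4 had 16.2, 19.3 and 14.0 CPM in brm-1 and 27.9, 31.3 and 27.7 CPM in ref6-1 (-0.81 ± 0.12, edgeR adjusted p = 0.00297). CAL, a relative of AP1, was low throughout, at 0.17, 0.273 and 0 CPM in brm-1 and 1.16, 1.67 and 1.56 CPM in ref6-1 (-3.18 ± 0.61, edgeR adjusted p = 0.0113), and stood at -3.85 without brm-1 replicate 2. The 12 floral genes summed to 87.1 to 92.7 CPM in brm-1 and 76.8 to 86.5 CPM in ref6-1.

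**Figure D5:**
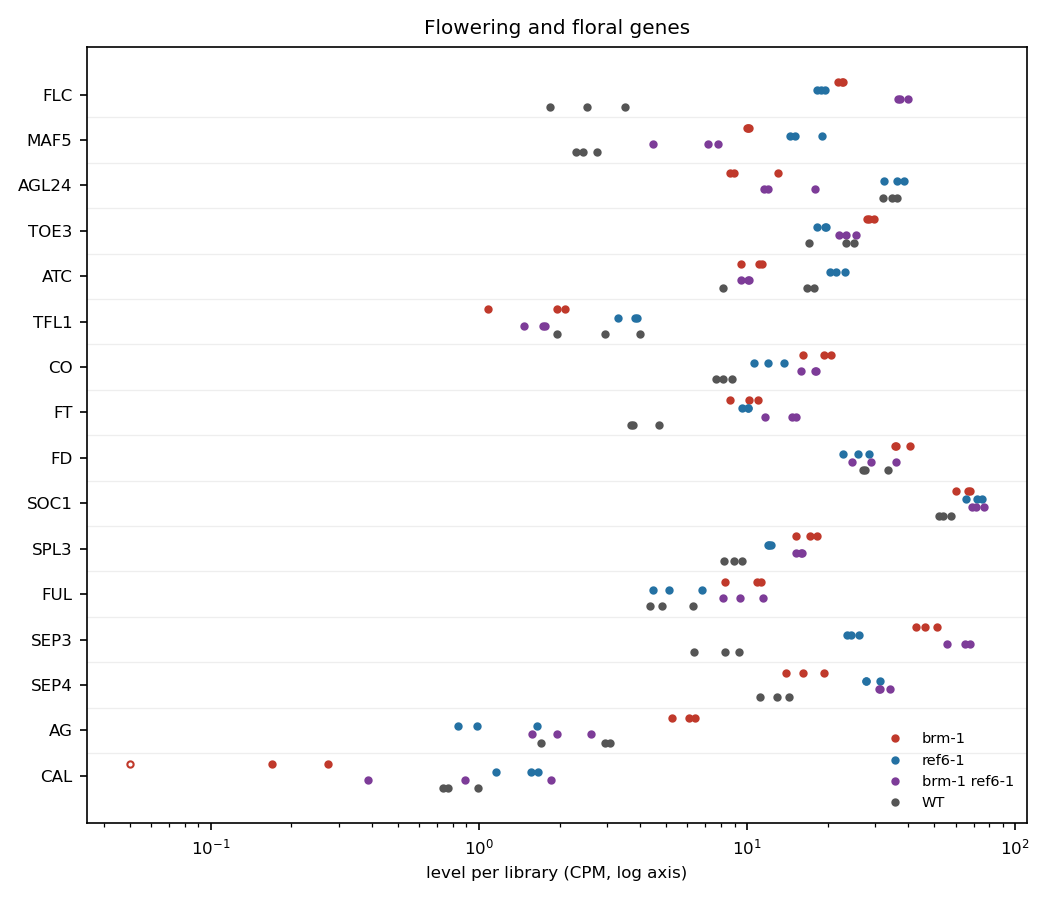
Level in each library (CPM, log axis, the open point is 0 counts) of 16 flowering and floral genes, with brm-1 above ref6-1, then the combined mutant and WT. AGL24, SEP4 and ATC lie lower and SEP3 and AG higher in brm-1 than in ref6-1, while FT overlaps.

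Seed transcripts reached their highest level in 1 brm-1 library among the 6. Of 22 genes of seed maturation only 4 passed the filter on low counts, so the list is not described by those 4, of which 3 were higher. The higher members numbered 1 with limma-voom or without brm-1 replicate 1, ref6-1 replicate 1 or ref6-1 replicate 3, 5 with DESeq2 or without brm-1 replicate 3, and 6 with all 12 libraries in the fit. ABI5, a bZIP factor of abscisic acid (ABA) signalling in seeds, had 25.8, 24.3 and 22.3 CPM in brm-1 and 15.6, 14.3 and 14.2 CPM in ref6-1 (0.72 ± 0.09, edgeR adjusted p = 0.00153). CRA1, the storage globulin cruciferin, had 5.95, 16.0 and 1.76 CPM in brm-1 and 0, 0.186 and 0.183 CPM in ref6-1 (5.90 ± 1.25, edgeR adjusted p = 0.0274). The brm-1 libraries differed widely, with replicate 2 highest, and CRA1 stood at 4.88 without it. The CRA1 call ended with limma-voom (adjusted p = 0.127), and without brm-1 replicate 1 (0.0546), ref6-1 replicate 1 (0.113), ref6-1 replicate 2 (0.1) or ref6-1 replicate 3 (0.0726) (the alternatives spanned 0.000102 to 0.127). Counts of the list without ABI5 were 303, 652 and 182 in brm-1 libraries, against 108, 138 and 111 in ref6-1 libraries, with 13 to 16 of 22 members above 0 in brm-1 and 9 to 13 in ref6-1. The part of seed tissue in these differences was not tested.

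Genes of the response to ABA and cold lay on both sides, 3 higher, 2 lower and 16 not passing of 21. Calls made up 23.8% of them, beside 14.0% of all genes tested. RD29B (AT5G52300, chromosome 5, 21237021 to 21239531), an ABA-responsive gene, had 10.7, 9.75 and 8.23 CPM in brm-1 and 0.714, 0.0929 and 0.183 CPM in ref6-1 (4.80 ± 0.42, edgeR adjusted p = 0.000311), or 6.00 without ref6-1 replicate 1. Its neighbour RD29A, which responds to cold and drought, had 109, 104 and 100 CPM in brm-1 and 58.4, 71.2 and 62.0 CPM in ref6-1 (0.71 ± 0.07, edgeR adjusted p = 0.000617). Both genes of the pair were higher in every brm-1 library. RAB18, a dehydrin also induced by ABA, was lower in brm-1, at 18.9, 18.8 and 16.7 CPM, against 26.8, 26.0 and 33.8 CPM in ref6-1 (-0.67 ± 0.11, edgeR adjusted p = 0.00631). COR15A, which protects chloroplast membranes in the cold, was lower by a log2 difference of -0.89 ± 0.19 (edgeR adjusted p = 0.0193), a call lost without brm-1 replicate 1 (0.0761), brm-1 replicate 3 (0.0798) or ref6-1 replicate 2 (0.074) (the alternatives spanned 0.000831 to 0.0798).

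Of 22 cytokinin genes tested, 1 was higher, 7 were lower in brm-1 and 14 did not pass, with a median of -0.13. Together 36.4% passed, beside 14.0% of all genes tested. ARR6, a type-A response regulator that is induced by cytokinin and damps its signal, had 7.23, 7.02 and 7.05 CPM in brm-1 and 21.7, 19.1 and 23.0 CPM in ref6-1 (-1.58 ± 0.11, edgeR adjusted p = 0.0001). ARR6 overlaps AT5G62910 on the opposite strand. The type-A genes ARR5 (-0.63 ± 0.07), ARR3 (-0.71 ± 0.12) and ARR4 (-0.25 ± 0.04) were lower as well (edgeR adjusted p = 0.00106, 0.00662 and 0.00647), the last of them not with DESeq2 (0.113, alternatives 0.00621 to 0.113). The type-A genes did not all move 1 way. ARR9, also type-A, was the 1 higher member (0.27 ± 0.06, edgeR adjusted p = 0.0157), a call that ended with DESeq2 (0.111) and without brm-1 replicate 1 (0.0513) or brm-1 replicate 3 (0.0512) (the alternatives spanned 0.0122 to 0.111). ARR7 and ARR15 differed by 0.37 ± 0.12 and 0.31 ± 0.54 and did not pass (edgeR adjusted p = 0.0681 and 0.775). CKX3, a cytokinin oxidase, had 1.19, 1.00 and 0.588 CPM in brm-1 and 2.86, 3.07 and 2.75 CPM in ref6-1 (-1.61 ± 0.31, edgeR adjusted p = 0.0113). The number of lower members was 4 with DESeq2, up to 8 in other settings, and 5 or 6 with a library left out.

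Of 19 gibberellin genes tested, 6 were higher, 1 was lower and 12 did not pass, with a median of 0.09. The share called was 36.8%, beside 14.0% of all genes tested. GA20OX2, a biosynthetic oxidase, had 6.38, 9.38 and 7.25 CPM in brm-1 and 2.94, 2.14 and 2.93 CPM in ref6-1 (1.52 ± 0.23, edgeR adjusted p = 0.00393). GID1B, a gibberellin receptor, had 69.9, 64.1 and 71.6 CPM in brm-1 and 52.1, 55.6 and 53.7 CPM in ref6-1 (0.35 ± 0.05, edgeR adjusted p = 0.00321). GA2OX1, which inactivates the hormone, was higher too (2.74 ± 0.60, edgeR adjusted p = 0.0193), and no longer passed without brm-1 replicate 2 (0.0684), brm-1 replicate 3 (0.0525) or ref6-1 replicate 2 (0.0542) (the alternatives spanned 0.00282 to 0.0684). GA3OX1, of the last biosynthetic step, was lower (-0.52 ± 0.11, edgeR adjusted p = 0.018). GA20OX1, also biosynthetic, was higher (0.96, edgeR adjusted p = 0.0453), a call that ended in 5 alternatives (which spanned 0.02 to 0.153). Of the biosynthetic genes named, GA20OX2 and GA20OX1 were thus higher and GA3OX1 lower. The higher members numbered 3 without brm-1 replicate 3 and 2 without ref6-1 replicate 2, and the lower ones 2 without ref6-1 replicate 1 or ref6-1 replicate 2.

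Among 12 brassinosteroid genes, 3 were higher and 1 lower, led by DWF4, a rate-limiting biosynthetic P450, at 38.9, 40.5 and 44.9 CPM in brm-1 and 29.9, 27.5 and 26.2 CPM in ref6-1 (0.57 ± 0.07, edgeR adjusted p = 0.00196). Of 23 auxin genes, 2 were higher and 3 lower. TAA1, of auxin synthesis, was higher (0.36 ± 0.06, edgeR adjusted p = 0.00749), and PIN5, an auxin carrier of the endoplasmic reticulum, had 4.76, 2.73 and 3.53 CPM in brm-1 and 9.19, 8.83 and 10.3 CPM in ref6-1 (-1.36 ± 0.21, edgeR adjusted p = 0.00469). Of 15 light and shade genes, 3 were higher and 1 lower. PIF7, a phytochrome-interacting transcription factor gene, was higher by 0.53 ± 0.07 (edgeR adjusted p = 0.0028). The clock list had 3 of 24 higher and 1 lower with a median of 0, a share called of 16.7% beside 14.0% of all genes tested. That share was 33.3% for brassinosteroid, 21.7% for auxin and 26.7% for light. CDF1, a repressor of CO, was higher by 0.49 ± 0.08 (edgeR adjusted p = 0.00682). With a library left out, the higher and lower members numbered 2 to 3 and 0 to 1 for brassinosteroid, 1 to 2 and 1 to 3 for auxin, 1 to 3 and 0 to 1 for light, and 1 to 2 and 0 to 1 for the clock, and the lowest counts for auxin, light and the clock were all reached without ref6-1 replicate 2.

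Defence genes were read in several lists. Of 18 jasmonate and ethylene genes, 4 were higher in brm-1 and none was lower, or 2 higher without brm-1 replicate 1 or brm-1 replicate 3. This was 22.2% called, beside 14.0% of all genes tested. The median was 0.09 and 6 log2 differences were negative. Summed levels overlapped, at 890 to 1060 CPM in brm-1 and 801 to 1120 CPM in ref6-1. With a block for the replicate number, 5 were higher and 1 lower. Calls of PDF1.2b (edgeR adjusted p = 0.0266) and PDF1.3 (0.0421) each ended in 5 alternatives. ERF1, an ethylene response factor, had 16.7, 13.5 and 20.0 CPM in brm-1 and 3.12, 4.09 and 7.60 CPM in ref6-1 (1.76 ± 0.31, edgeR adjusted p = 0.00958), and the defensin gene PDF1.1 had 5.10, 5.01 and 1.96 CPM in brm-1 and 0.446, 0.372 and 0.916 CPM in ref6-1 (2.79 ± 0.50, edgeR adjusted p = 0.00797). No library of brm-1 fell into the range of ref6-1 in these 2 genes. Of 19 salicylate genes, 17 had a positive log2 difference and the median was 0.30, but SAG101, a lipase-like protein of immune signalling, alone passed (0.49 ± 0.10, edgeR adjusted p = 0.0211). The salicylate members that were higher numbered 5 without ref6-1 replicate 3, 4 with all 12 libraries in the fit, 2 with DESeq2 and 0 without brm-1 replicate 3, and none was lower in these settings. The SAG101 call ended without brm-1 replicate 2 (0.0693) or brm-1 replicate 3 (0.0691) (the alternatives spanned 0.000364 to 0.0693), and summed levels of the list overlapped, at 793 to 999 CPM in brm-1 and 555 to 887 CPM in ref6-1.

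Genes of aliphatic glucosinolates, defence compounds made from methionine, had no member higher in brm-1 with any alternative. Of 14 tested, 4 were lower and 10 did not pass, with a median of -0.21 and 12 negative log2 differences. The share called was 28.6%, beside 14.0% of all genes tested. AOP2, which modifies the side chain, had 8.33, 13.4 and 14.9 CPM in brm-1 and 37.8, 35.9 and 39.3 CPM in ref6-1 (-1.63 ± 0.18, edgeR adjusted p = 0.00147). MYB29, a regulator of the pathway, had 21.9, 26.0 and 24.5 CPM in brm-1 and 35.9, 38.6 and 33.7 CPM in ref6-1 (-0.58 ± 0.08, edgeR adjusted p = 0.00278), and MAM3, of chain elongation, differed by -0.28 ± 0.05 (edgeR adjusted p = 0.00947). The 2 mutants did not overlap in AOP2 or MYB29. Summed over the 15 genes of the list, levels were 825 to 955 CPM in brm-1 and 1030 to 1090 CPM in ref6-1.

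Flavonoid genes were lower in 5 cases and higher in 1 of 18, with a median of -0.30, and the lower members numbered 3 without brm-1 replicate 2 or brm-1 replicate 3. Together 33.3% passed, beside 14.0% of all genes tested. The higher members numbered 0 without brm-1 replicate 2, ref6-1 replicate 1 or ref6-1 replicate 2, and 2 without ref6-1 replicate 3. FLS1, flavonol synthase, had 55.1, 50.6 and 49.0 CPM in brm-1 and 76.1, 67.3 and 70.0 CPM in ref6-1 (-0.46 ± 0.06, edgeR adjusted p = 0.00206). CHS and CHI, the first enzymes of the pathway, differed by -0.16 ± 0.03 and -0.27 ± 0.06 (edgeR adjusted p = 0.00988 and 0.015) and did not pass with DESeq2 (0.132 and 0.0853, their highest over the alternatives, with lowest values of 0.00667 and 0.00206). MYB111, a regulator of flavonol genes, was higher (0.99 ± 0.22, edgeR adjusted p = 0.0243), which did not pass with limma-voom (0.0551) and without brm-1 replicate 2 (0.0714), ref6-1 replicate 1 (0.0766) or ref6-1 replicate 2 (0.0942) (the alternatives spanned 7.56e-05 to 0.0942). CHS overlaps AT5G13940 on the opposite strand.

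Cell wall genes showed members on both sides. Shares called were 33.3% of xyloglucan endotransglucosylases and 30% of expansins, beside 14.0% of all genes tested. Of 21 xyloglucan endotransglucosylases, 4 were higher and 3 lower, or 1 lower with DESeq2. XTH17 (AT1G65310, chromosome 1, 24257054 to 24258506) had 12.7, 13.9 and 16.0 CPM in brm-1 and 28.1, 34.1 and 28.7 CPM in ref6-1 (-1.10 ± 0.11, edgeR adjusted p = 0.000617), the reverse of XTH25. Of 10 expansins, which loosen walls, EXPA16 was higher, at 13.9, 10.8 and 13.5 CPM in brm-1 and 3.48, 5.20 and 3.39 CPM in ref6-1 (1.66 ± 0.20, edgeR adjusted p = 0.00147), and EXPA5 lower (-0.41 ± 0.08, edgeR adjusted p = 0.00891). The higher expansins numbered 3 without ref6-1 replicate 1 or with all 12 libraries in the fit. A second lower member, EXPA11 (-0.42 ± 0.12, edgeR adjusted p = 0.0472), lost its call with DESeq2 (0.0887) and without every library but brm-1 replicate 2, from 0.0601 without ref6-1 replicate 3 to 0.138 without brm-1 replicate 3 (the alternatives spanned 0.0245 to 0.138).

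Among 15 meristem and organ boundary genes, 3 were higher and 1 lower, or 5 higher without ref6-1 replicate 1. Calls made up 26.7% of them, beside 14.0% of all genes tested. LOB, a boundary gene, had 19.0, 17.9 and 17.5 CPM in brm-1 and 10.8, 12.4 and 11.2 CPM in ref6-1 (0.66 ± 0.10, edgeR adjusted p = 0.00353). AS2, of leaf polarity, had 22.4, 19.0 and 16.5 CPM in brm-1 and 11.0, 12.8 and 13 CPM in ref6-1 (0.66 ± 0.13, edgeR adjusted p = 0.0138). RAX1, which starts axillary meristems, was lower (-0.93 ± 0.13, edgeR adjusted p = 0.00251). In the senescence list, NYE2, which breaks down chlorophyll, was the single call of 11, at 20.1, 17.8 and 18.6 CPM in brm-1 and 2.14, 3.62 and 5.68 CPM in ref6-1 (2.3 ± 0.27, edgeR adjusted p = 0.00151).

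In the lists of nutrition and markers, FRO2, the root iron reductase, was lower in brm-1 (-1.55 ± 0.28, edgeR adjusted p = 0.0087), at 2.3, 1.37 and 3.04 CPM, against 6.33, 5.76 and 7.51 CPM in ref6-1. PHT1;4, a phosphate transporter, was higher (0.32 ± 0.05, edgeR adjusted p = 0.00527). TCL1, an inhibitor of trichome formation, had 7.91, 4.28 and 3.92 CPM in brm-1 and 1.43, 1.58 and 2.01 CPM in ref6-1 (1.68 ± 0.34, edgeR adjusted p = 0.0132), and its call ended without ref6-1 replicate 2 (0.058, alternatives 0.00161 to 0.058). Of 24 photosynthesis genes 2 were higher and none lower, but 12 were higher without brm-1 replicate 1 and none without brm-1 replicate 2, brm-1 replicate 3, ref6-1 replicate 2 or ref6-1 replicate 3. Among SWI/SNF genes, CHR23, an ATPase related to BRM, differed by -0.28 ± 0.06 (edgeR adjusted p = 0.0123).

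Genes past the threshold were spread over the genome. They made up 13 to 15% of the tested genes of each chromosome, 10.4% of the 469 within 1 Mb of BRM and 12.8% of the 415 within 1 Mb of REF6, beside 13.9% of all genes placed on the annotation. Where at least 4 tested neighbours passed in 1 direction, 8 runs were found. Besides the CRK array, these held 6 germin-like genes on chromosome 5 (15653125 to 15693735), all higher in brm-1 with a median of 1.41. Among them AT5G39130 had 4.51, 5.19 and 4.60 CPM in brm-1 and 0.446, 0.929 and 2.01 CPM in ref6-1. AT5G39160 and AT5G39190 share 99.7% of 1137 bases and cannot be counted apart with certainty. With their closest copies AT5G39130, AT5G39120, AT5G39110 and GLP6 share 93.7%, 97%, 92.7% and 87.3% of 1007, 941, 909 and 907 bases. Counts of single genes in this run are therefore uncertain, and GLP6 and AT5G39110 passed narrowly (edgeR adjusted p = 0.046 and 0.0455). A run of 5 neighbours of the UGT85A glycosyltransferase cluster on chromosome 1 (7890259 to 7902427) was lower in brm-1 with a median of -1.61, UGT85A7 by -2.76 ± 0.30 (edgeR adjusted p = 0.000829). Next to CER1, an enzyme of wax alkanes (0.49 ± 0.07, edgeR adjusted p = 0.00355), NAC003 and NAC004 formed part of a run of 4 higher genes.

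The WT and combined-mutant libraries took no part in choosing these genes, and their levels are given as a description. Of the 399 genes at least 2-fold higher in brm-1, the WT mean lay between the 2 single mutants for 276 (69.2%), above both for 70 and below both for 53, and it was nearer brm-1 for 231 (57.9%). Of the 264 genes at least 2-fold lower in brm-1, it lay between the single mutants for 151 (57.2%), above both for 106 and below both for 7, and it was nearer ref6-1 for 228 (86.4%). Over all genes tested WT lay between for 33.3%, and it was nearer brm-1 for 44.2% and nearer ref6-1 for 55.8%. The called genes were chosen for a gap between the single mutants, and WT falls inside a wide gap more often by construction. The higher shares between the single mutants are therefore no result when set beside the 33.3%. Nearness was judged with an offset of 0.5 CPM. With no fold minimum, WT was nearer brm-1 for 736 (45.3%) and nearer ref6-1 for 888 (54.7%) of the 1624 genes higher in brm-1, and nearer ref6-1 for 1153 (81.8%) of the 1409 genes lower. Median levels of the 399 genes were 7.94 CPM in brm-1, 2.28 in ref6-1, 3.90 in the combined mutant and 4.99 in WT. For the 264 genes they were 2.60 CPM in brm-1, 8.27 in ref6-1, 3.26 in the combined mutant and 7.37 in WT.

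Single genes fell into different patterns by these levels. BPC7 averaged 0.469 ± 0.579 CPM in the combined mutant and 5.14 ± 0.539 CPM in WT, so WT was near brm-1 and the combined mutant near ref6-1. CRK12 showed the same order, with 5.40 ± 2.42 CPM in the combined mutant and 22.9 ± 4.45 CPM in WT. AGL24 had 13.8 ± 3.52 CPM in the combined mutant, near brm-1, and 34.3 ± 2.06 CPM in WT, near ref6-1. SEP3 was highest in the combined mutant at 62.8 ± 6.54 CPM and lowest in WT at 7.99 ± 1.53 CPM, and FLC likewise, at 37.8 ± 1.78 CPM in the combined mutant and 2.63 ± 0.832 CPM in WT (all SD, n = 3). These values carry no test here, and BRM itself had 16.7 ± 20.9 CPM in the combined mutant, uneven between its libraries.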

How the data were processed

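The authors deposited a table of counts of reads per locus, per the labels and the submitters' processing notes, which name TopHat2 and the build TAIR10. The sources used here do not give the counter, its strand setting or any duplicate removal. Of 29420 loci, 28932 matched the TAIR10.1 annotation, and an excess of even counts means that both mates of a pair may have been counted. Counts of the 3 brm-1 and 3 ref6-1 libraries were tested with edgeR 4.0.16 in R 4.3.3: TMM scaling, filterByExpr, a two-sided quasi-likelihood F test (robust), with Benjamini-Hochberg adjustment over all genes tested, no fold minimum and no covariate. The 12 libraries share 1 CPM scale. On simulated counts of this comparison (21631 genes), changes were set only in genes above a minimum mean level. Recovery was 79.1% of 67 changes of 1.5-fold, 94.0% of 67 of 2-fold and 100% of 66 of 4-fold. Beside these recovered changes stood 20 false calls among unchanged genes. Far fewer changes were set than the 3033 genes called here, so these false calls do not give the error rate of that list. The recovery shares do not cover genes at low levels.

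Named genes were BRM and REF6, the 12 largest differences each way (mean of at least 2 CPM, no overlap), the 5 lowest adjusted p each way, and up to 6 members of each of 30 lists. FUL, FLC, FT, SOC1, GA20OX1, CRK5, CRK8, CRK10, CRK18, CRK40, CRK17 and genes of neighbour runs were named after their values were seen. Of 532 listed genes 10 were dropped because symbol and locus did not match. Members, lists and rules were chosen with earlier results of these data known. Alternatives were DESeq2 1.42.0 and limma-voom (limma 3.58.1), other scaling and filters, all 12 libraries in 1 fit, a block for the replicate number, and leaving out libraries 1 at a time. Promoter bases are from the RefSeq TAIR10.1 genome. Intervals cover counting error only.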

Additional observations from a re-analysis of the deposited data

How the results depend on the processing

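The 3033 genes past the threshold became 663 with a 2-fold minimum, 1263 at an adjusted p under 0.01, 2175 with DESeq2 1.42.0 (916 of them lower in brm-1, against 1409 with edgeR), 2998 with limma-voom, 3045 with no filter and 3550 with all 12 libraries in the fit. With a library left out they ran from 1760 (without ref6-1 replicate 2) to 2593, and the listed members that passed from 73 to 112 beside 118. Genes called by both the edgeR fit and an alternative never had opposite signs, and the share of calls higher in brm-1 ran from 51.1 to 59.2%. The log2 difference of REF6 stayed at 0.17 where its call ended, with DESeq2 and without brm-1 replicate 2, and was 0.15 to 0.18 with a library left out. Of 129 named genes, 77 kept their calls in every alternative and none changed sign. On the gene strand alone the REF6 motif was in 4.40% of promoters of genes higher and 3.77% of those lower in brm-1, against 3.81% of all genes tested, fewer than on both strands by construction. Same-numbered libraries of the 2 mutants correlated at 0.07, 0.06 and 0.20 in their deviations from the group means, and the other pairs at -0.27 to 0.19. Of the brm-1 libraries, replicates 1 and 3 correlated best with their own number, and replicate 2 with ref6-1 replicate 1. With 3 libraries per mutant, these values cannot decide whether same-numbered libraries shared a batch. With the replicate number as a block, 3655 genes and 162 listed members passed. CYP82C2 did not pass with the block (adjusted p = 0.133), and 4 salicylate genes were higher with it. Genes called made up 14.5% of those tested below a mean of 2 CPM and 15.9% over 2 to 10 CPM, against 14.7% over 10 to 50 CPM. The median absolute log2 difference of the called genes in these 3 ranges was 2.14, 1.27 and 0.51.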
